A study of Homo sapiens with 2 samples.

Results

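The cells described here are 328 treatment-naïve SUM159 cells, grown attached, that carried 3 or more unique molecular identifiers (UMIs, counted RNA molecules) of CDH3, which encodes P-cadherin. They were selected on that count alone from the 5305 cells of the naïve attached population, or 6.18% of it (exact 95% interval 5.55 to 6.86%), out of 30122 cells in the series. They are called CDH3-high cells, and the remaining 4977 cells of the same population are called the other cells. SUM159 is an established human triple-negative breast cancer cell line, wild type per the labels and with no introduced change. The attached sample pooled naïve cells with cells made resistant to paclitaxel or to doxorubicin by long-term exposure to rising doses, each marked with its own sample tag. A spheroid sample pooled the same kinds of population on a separate cartridge. Naïve cells had received neither drug. Each population was taken from its file's name, since no label ties a tag to a file. Each was present once with no replicate, and the populations of a sample shared its pool. No p-value is therefore given, and every interval covers counting error only.

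P-cadherin is a classical cadherin of the basal layer of stratified and glandular epithelia, and in breast tumours it marks basal-like cells. Basal epithelial cells typically make the keratins KRT14 and KRT17 and adhere through integrins such as ITGA6. In the epithelial-mesenchymal transition, cells lose epithelial adhesion molecules and gain fibrillar collagens, decorin and platelet-derived growth factor receptors. Triple-negative lines of the mesenchymal kind, among them SUM159, can hold cells at different points of that range.

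Above the threshold, 107 cells held 3 CDH3 UMIs, 56 held 4, 127 held 5 to 9 and 38 held 10 or more, with a maximum of 24. Just outside it, 190 cells held 2 UMIs and 527 held 1, and 4260 had none. The CDH3-high cells thus carried 67.4% of the 2782 CDH3 UMIs of the population. A count threshold selects deep cells, and the CDH3-high cells had a median of 4503 UMIs and 142 genes against 3664 UMIs and 134 genes in the other cells. The share of CDH3-high cells was 2.34% in the lowest quartile of total UMIs and 5.13, 7.39 and 9.87% in the following quartiles. When every cell of 2000 or more UMIs was thinned to 2000, 140 of 4794 cells (2.92%) still had 3 or more CDH3 UMIs. The comparisons below are therefore given with values at matched depth.

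Levels were summed UMIs per gene as CPM (UMIs of the gene in 1000000 UMIs of the panel), with CDH3 left out: 1594182 UMIs in the CDH3-high cells and 19828920 in the other cells. A gene was called measured where the group in which it was higher had 50 or more UMIs, and was called higher or lower at a fold of 2 or more. Of 229 measured genes, 9 (3.93%) were higher in the CDH3-high cells and 17 (7.42%) were lower, and the median log2 fold over all measured genes was -0.05. With mean UMIs per cell and no scaling, where that median moved to 0.24, the split was 11 higher and 11 lower. Because the other cells held most of the UMIs, a lower gene could reach the 50 UMIs at a far smaller CPM than a higher gene.

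The basal genes KRT14 and KRT17 and the ligand gene AREG, taken as markers of these cells, all stood higher, by unequal folds. These markers were named with earlier results of these data known. Their higher level therefore describes the cells and is no test of the name epithelial-like. KRT14, a basal keratin at chr17:41582279-41586895 (GRCh38), stood at 8525 CPM in CDH3-high cells and 3217 CPM in the other cells, a fold of 2.65 (95% counting interval 2.60 to 2.70). AREG at chr4:74445136-74455005, which encodes the EGF receptor ligand amphiregulin, stood at 5262 against 2325 CPM, a fold of 2.26 (2.21 to 2.32). KRT17 at chr17:41619442-41624575, a basal keratin of stressed and proliferating epithelia, stood at 22360 against 11698 CPM, a fold of 1.91 (1.89 to 1.93), and so did not reach 2-fold. KRT14 and KRT17 are close paralogs, and whether reads were split between them was not tested.

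The difference was not that of a few cells. The median KRT14 level per cell was 4032 CPM in the CDH3-high cells and 318 CPM in the other cells, and the median AREG level was 1261 against 181 CPM. A level above the upper quartile of the other cells was found in 56.7% of CDH3-high cells for KRT14, 49.1% for AREG and 57.3% for KRT17. All 3 markers passed that mark together in 25.9% of CDH3-high cells and 7.27% of the other cells, whereas none did in 18.6 and 53.6%. The selection was thus not uniform: 35 CDH3-high cells had no KRT14 UMI, 68 had no AREG UMI and 12 had neither. After thinning, a KRT14 UMI was found in 84.6% of CDH3-high and 50.6% of other cells, and an AREG UMI in 71.4 and 44.5%. A KRT17 UMI was found in 100 and 99.4%, so KRT17 differed in level and not in presence. The library holds no cell type known to lack these genes. In the paclitaxel-resistant cells of the same cartridge, at a median of 3653 UMIs, 8.75% of cells had a KRT14 UMI, 25.7% an AREG UMI and 3.82% a CDH3 UMI. KRT17, by contrast, was found in 99.9% of those cells, at 4848 CPM against 12489 CPM in all naïve attached cells.

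The cells were epithelial-like in these basal genes, whereas the junction genes of a polarized epithelium were at or near 0. CDH1, which encodes E-cadherin, had 0 UMIs in the 328 cells, which allows a share of cells with a UMI of up to 0.915%, and 1 UMI in the other cells. EPCAM, an epithelial adhesion molecule, had 1 UMI against 30, and CLDN3, a tight-junction claudin, had 0 against 1. VIM, the mesenchymal filament protein vimentin, was at 58611 against 50771 CPM, a fold of 1.15 (1.15 to 1.16). EPCAM and VIM were named here after their values were seen.

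Among the other genes higher in CDH3-high cells, the largest folds belonged to the calprotectin subunits, calcium-binding proteins of stressed epithelia and of neutrophils. S100A9 at chr1:153357854-153361023 stood at 11289.9 CPM in CDH3-high cells and 3829 CPM in the other cells, a fold of 2.95 (2.90 to 3.00). S100A8 at chr1:153390032-153422583 stood at 143 against 48.5 CPM, a fold of 2.95 (2.55 to 3.42). Both subunits thus differed by the same fold, although S100A8 was a scarce transcript.

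ABCG2, the drug efflux transporter also known as breast cancer resistance protein, was at 272 against 114 CPM, a fold of 2.38 (2.14 to 2.64). ABCB1, the P-glycoprotein transporter, was at 120.0 against 148 CPM, which is 1.24-fold lower (1.07 to 1.44), so the measured efflux transporters lay on opposite sides of 1. SFN at chr1:26863149-26864456, the epithelial 14-3-3 sigma protein and a p53 target, was at 522 against 245 CPM, a fold of 2.13 (1.98 to 2.30). ALDH1A1, a retinaldehyde-oxidizing enzyme by which stem-like breast cells are often recognized, reached 2.07-fold (1.83 to 2.34), and CCND2, the G1 cyclin D2, reached 2.01-fold (1.83 to 2.22). The intervals of SFN, ALDH1A1 and CCND2 include 2, so their place above the threshold is uncertain. ESM1, which encodes the proteoglycan endocan, had a fold of 2.77 (2.03 to 3.73) on 55 UMIs, of which 34.5% came from 1 cell, and without the top cell of each group its fold was 1.94 on 36 UMIs. MME, the membrane peptidase CD10 of basal and myoepithelial cells, had a fold of 1.65 (1.54 to 1.77), and THBS1, the matrix protein thrombospondin-1, 1.58 (1.48 to 1.68).

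**Figure D1:**
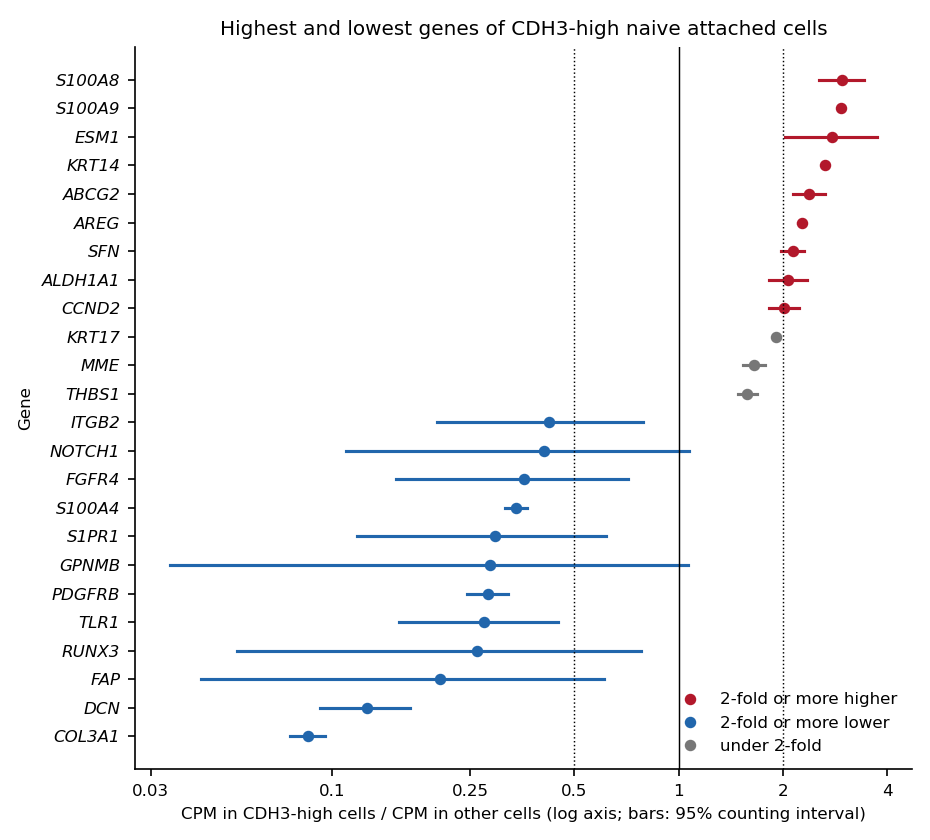
Fold of CPM between the CDH3-high cells and the other naïve attached cells (log axis) for the 12 measured genes with the largest fold upward and the 12 with the largest fold downward. Points are folds, bars are 95% counting intervals, and dotted lines mark 2-fold; COL3A1 and DCN lie farthest down, and the intervals of GPNMB and NOTCH1 cross 1.

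The sequences before the start of 3 of the higher genes are shown. Epithelial promoters are known for E-boxes bound by transcriptional repressors that act in the epithelial-mesenchymal transition. All 3 windows shown hold such an E-box, so they do not stand for all the higher genes. The windows are the 250 bases before the RefSeq start on the plus strand of GRCh38.p14: chr4:74444886-74445135 for AREG, chr1:26862899-26863148 for SFN and chr1:153357604-153357853 for S100A9. Capitals mark the E-box CAGGTG or the same letters on the other strand, CACCTG.
AREG: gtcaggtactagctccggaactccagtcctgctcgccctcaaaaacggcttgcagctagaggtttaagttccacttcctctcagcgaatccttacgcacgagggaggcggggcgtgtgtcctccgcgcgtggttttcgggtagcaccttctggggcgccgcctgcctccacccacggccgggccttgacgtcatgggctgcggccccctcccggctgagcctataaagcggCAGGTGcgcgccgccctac
SFN: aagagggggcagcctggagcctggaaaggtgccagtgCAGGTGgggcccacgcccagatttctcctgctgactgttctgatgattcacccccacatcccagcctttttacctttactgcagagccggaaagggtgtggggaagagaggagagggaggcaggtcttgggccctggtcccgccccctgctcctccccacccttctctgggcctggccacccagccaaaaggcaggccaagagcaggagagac
S100A9: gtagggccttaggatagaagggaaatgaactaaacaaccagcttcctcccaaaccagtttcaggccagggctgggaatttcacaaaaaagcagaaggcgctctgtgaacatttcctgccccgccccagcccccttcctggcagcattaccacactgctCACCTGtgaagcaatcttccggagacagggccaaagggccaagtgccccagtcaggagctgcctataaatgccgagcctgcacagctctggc

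The motif began 19 bases before the start in AREG, 213 in SFN and 92 in S100A9. Of the 12 genes with the largest fold upward, 9 had a window and 5 of these held the motif on either strand (AREG, MME, S100A8, S100A9 and SFN). ABCG2, ALDH1A1, ESM1 and THBS1 had a window without it. Of the 12 with the largest fold downward, 7 had a window and 3 held it (FGFR4, RUNX3 and S100A4). It was present for 24.6% of 256 panel genes and 20.6% of 27305 genes with a window, and in 17.5% of all 35116 windows. These are counts of letters, and they say nothing of the factors that bind them.

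The 2 lowest genes of the CDH3-high cells encode matrix proteins. Of the 17 lower genes, 5 were on the mesenchymal and matrix list, which held 22 of the 229 measured genes. COL3A1 at chr2:188974373-189012746, a fibrillar collagen, stood at 179.6 CPM against 2108 CPM in the other cells and was 11.7-fold lower (10.4 to 13.2). Of its 286 UMIs in CDH3-high cells, 56.6% came from 1 cell, and without the top cell of each group it was 26.5-fold lower. DCN at chr12:91140484-91182817, the proteoglycan decorin, was at 29.5 against 234 CPM and 7.94-fold lower (5.96 to 10.8). PDGFRB, the platelet-derived growth factor receptor of mesenchymal cells, was at 138 against 489 CPM and 3.56-fold lower (3.11 to 4.09). FAP, a fibroblast surface protease, was 4.87-fold lower (1.64 to 23.8) on 3 UMIs against 182. COL1A1, the main chain of type I collagen, was 1.71-fold lower (1.64 to 1.78) and did not reach 2-fold.

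S100A4, a calcium-binding protein of motile cells, was at 455 against 1342 CPM and 2.95-fold lower (2.74 to 3.18), although 27.4% of its UMIs in CDH3-high cells came from 1 cell. IGFBP3, an insulin-like growth factor binding protein, was at 1292 against 2946 CPM and 2.28-fold lower (2.18 to 2.38). The innate receptor TLR1 was 3.64-fold lower (2.23 to 6.41) on 16 UMIs. The other genes among the 12 lowest had 2 to 10 UMIs in the CDH3-high cells. Of these, RUNX3, S1PR1, FGFR4 and ITGB2 had intervals below 1, at 3.83, 3.38, 2.80 and 2.37-fold lower. The intervals of GPNMB and NOTCH1 included 1, so no difference was detectable for them at this depth. The remaining lower genes, CD14, ROS1, MALAT1 and STAT5A, were 2.04 to 2.09-fold lower, and the interval of MALAT1, with 4 UMIs, included 1.

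Collagen-rich cells were scarce among the CDH3-high cells. Cells with 10 or more COL3A1 UMIs were 4 of 328 CDH3-high cells (1.22%, exact interval 0.333 to 3.09%) and 649 of 4977 other cells (13.04%, 12.1 to 14.01%). With these cells left out of both groups, COL3A1, the gene used to leave them out, was still 3.62-fold lower, DCN 3.88-fold and PDGFRB 2.36-fold lower. S100A4 was then 1.88-fold lower, below the threshold. On the epithelial side KRT14 remained at 2.37-fold and AREG at 2.04-fold higher, and 6 genes higher and 12 lower were left, of which 6 and 11 were among the original calls.

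The levels changed with the number of CDH3 UMIs, though not at every step. KRT14 was at 2805 CPM in cells with no CDH3 UMI, 5028 with 1, 6501 with 2, 6899 with 3, 6821 with 4, 8614 with 5 to 9 and 14115 with 10 or more. S100A9 went from 3546 CPM with no CDH3 UMI to 5839 with 2, 6733 with 3 and 17981 with 10 or more. KRT17 was at 10849 CPM with none, 18007 with 2, 19387 with 3, 18789.5 with 4 and 29003 with 10 or more. There was no break at the threshold for these genes: cells just outside it, with 2 UMIs, were close to those just inside.

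The matrix genes were already lower in cells with 1 CDH3 UMI. DCN was at 269.9 CPM with none and 46.0 CPM with 1, and PDGFRB at 534 and 249.7 CPM. COL3A1 was at 2398, 535, 598 and 82.1 CPM in cells with 0, 1, 2 and 3 CDH3 UMIs. It was at 646 CPM in the 56 cells with 4 UMIs, which held 2 of the 4 collagen-rich members, and at 76.6 CPM with 5 to 9. Cells with 1 or 2 CDH3 UMIs count among the other cells here, so the folds above are set against a group that includes them. Median total UMIs also went up with CDH3, from 3619 with none to 5442 with 10 or more.

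**Figure D2:**
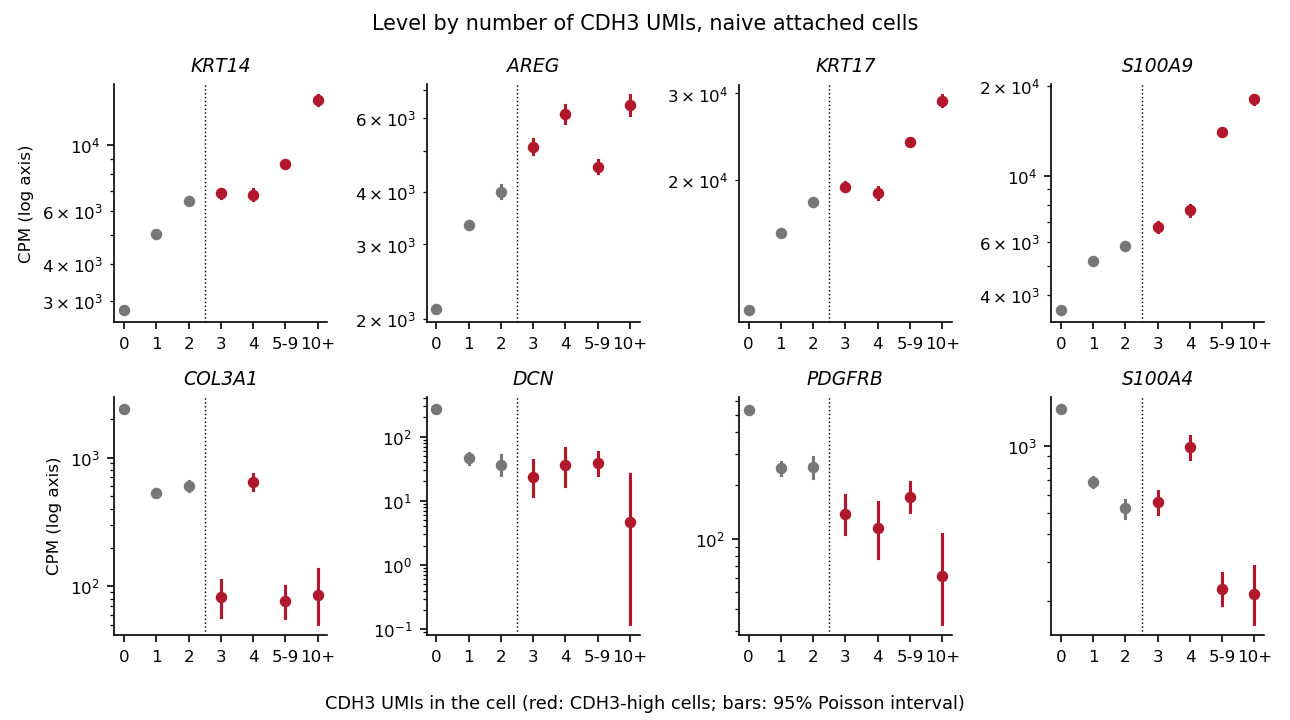
Level of 8 genes in CPM (log axes, one scale per gene) in naïve attached cells grouped by CDH3 UMIs per cell, with 95% Poisson intervals as bars; red points right of the dotted line are CDH3-high cells. S100A9 is higher in each group than in the one before it, KRT14 and KRT17 are also higher from 0 to 10 or more apart from nearly level values at 3 and 4, AREG is at 5131 CPM with 3 CDH3 UMIs and 4591 CPM with 5 to 9, and the 4 lower genes have their highest level in cells with no CDH3 UMI.

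The folds were also computed within 4 quartiles of total UMIs. Of the 9 higher genes, 8 were above 1 in every quartile. The exception was ESM1, at 0.449-fold in the third quartile on 3 UMIs and up to 4.75-fold elsewhere. Across the quartiles KRT14 was 2.47 to 3.81-fold higher in CDH3-high cells, S100A9 2.43 to 3.92-fold and AREG 1.86 to 3.15-fold. KRT17 was 1.67 to 2.30-fold, ABCG2 1.98 to 3.26-fold and SFN 1.88 to 2.38-fold higher. COL3A1 was 6.72 to 69.1-fold lower and PDGFRB 2.10 to 9.47-fold lower, in both cases with the smallest fold in the deepest quartile. FAP, RUNX3, GPNMB, NOTCH1, S1PR1, FGFR4 and ITGB2, with 2 to 10 UMIs in all CDH3-high cells, were not below 1 in every quartile. Their values above 1 came from a count of 0 in CDH3-high cells set to the floor of 3, and show no reversed direction. The exception was NOTCH1 in the third quartile, at 1.005-fold on 2 UMIs. When the 328 cells with the largest share of CDH3 among their UMIs were taken instead, 273 were the same cells, their median depth was 3793 UMIs against 3704 in the rest, and all 9 higher genes and 14 of the 17 lower genes were called again.

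**Figure D3:**
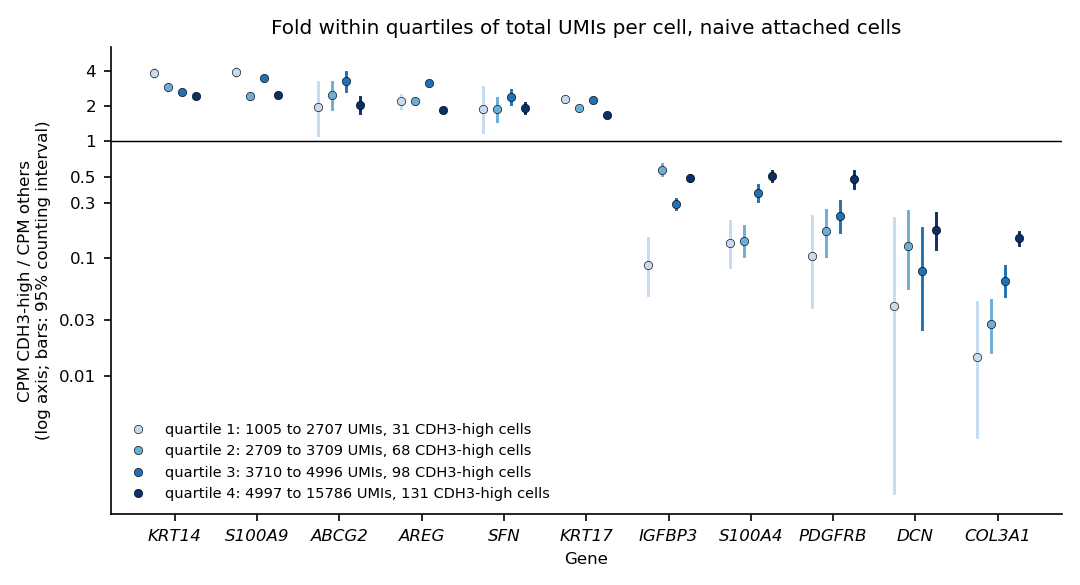
Fold of CPM between CDH3-high and other cells (log axis) within 4 quartiles of total UMIs per naïve attached cell, with 95% counting intervals as bars and darker points for deeper cells. The 6 genes on the left lie above 1 and the 5 on the right below 1 in all 4 quartiles.

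Over all 229 measured genes, 96 were above 1 and 133 below 1, and 9 were called higher and 17 lower. The counts of every list below are to be set beside these. The basal epithelial genes had 7 measured members without CDH3, among them the markers KRT14 and KRT17. All 7 were above 1, 2 were called higher (KRT14 and SFN) and the median log2 fold was 0.38 against -0.05 over all measured genes. TP73, a p53-family factor that the study used as an epithelial marker, was at 1.24-fold (1.17 to 1.31), the integrin ITGA6 at 1.30-fold (1.26 to 1.34) and the basal-like transcription factor FOXC1 at 1.13-fold (1.04 to 1.22), all under 2-fold. The luminal epithelial list had 11 measured genes, none called, and a median of -0.03, from KRT8, a simple-epithelium keratin at 1.42-fold (1.37 to 1.48), to CLDN4, a claudin with 9 UMIs. Of the 4 EGF family genes, all 4 were above 1 and 1 (AREG) was called, from 2.26-fold down to the receptor ERBB2 at 1.20-fold.

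The mesenchymal and matrix list had 22 measured genes, of which 5 were called lower (COL3A1, DCN, FAP, PDGFRB and S100A4) and none higher, with 15 below 1 and a median log2 fold of -0.26. Its summed level was nevertheless 175973 CPM in the CDH3-high cells and 171911 CPM in the other cells and VIM, one of its most abundant genes, was above 1. The insulin-like growth factor list, 3 binding proteins and the receptor IGF1R, had 1 of 4 called lower (IGFBP3), 3 below 1 and a median log2 fold of -0.50. IGFBP5, named after its value was seen, was 1.92-fold lower (1.87 to 1.97) on 6424 UMIs, and IGFBP7 was at 1.04-fold. The inflammatory list had 16 measured genes, 2 called higher (S100A8 and S100A9) and 12 below 1, with a median of -0.42. That list therefore ran in both directions, with the calprotectin subunits apart from the cytokines.

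Proliferation genes did not separate the groups. None of 17 G2/M genes was called, their median log2 fold was 0.02, and they ran from CDC20, an activator of the anaphase-promoting complex, at 1.12-fold, to the kinetochore protein CENPF at 1.14-fold lower. Of 16 G1/S genes, 1 was called higher (CCND2), with a median of 0.02. The sign of either median depended on the way the cells were chosen and scaled. None of 12 adhesion genes and none of 5 interferon and antigen presentation genes was called, although CD74, the invariant chain of MHC class II, was at 1.49-fold (1.25 to 1.77). The p53 target list had 1 of 10 called higher (SFN), the stem cell list 1 of 6 (ALDH1A1) and the efflux list 1 of 2 (ABCG2).

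Markers of other cell types were few. Of 14 T and NK cell markers, 11 (CD3E, CD4, CD8A and PTPRC among them) had 0 UMIs in CDH3-high cells and none was measured, with a summed level of 16.3 against 10.99 CPM. Most of that sum came from CD3D, a T cell receptor chain named after its value was seen, which had 21 UMIs against 108, a fold of 2.42 (1.44 to 3.89) below the 50 UMIs of a measured gene. Of 5 measured myeloid markers, 3 were lower and none higher, with a summed level of 375 against 789 CPM, and the defining genes LYZ and C1QA had 0 UMIs. Of 2 measured B cell markers none was called, at 1314 against 1801 CPM in sum, nearly all from FCRLA. Of 2 measured endothelial markers 1 was called higher (ESM1), at 226 against 188 CPM, and VWF had 0 UMIs. The part of CD3D and ESM1, which were higher together with the basal genes, was not tested.

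**Figure D4:**
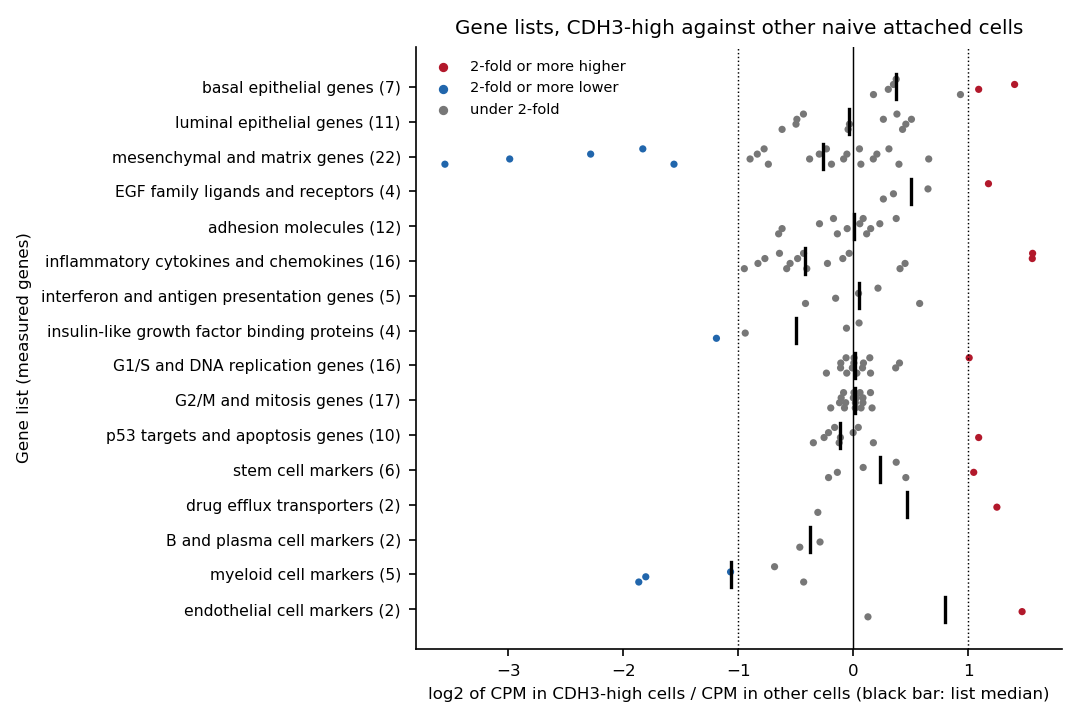
Log2 fold between CDH3-high and other naïve attached cells for the measured genes of 16 gene lists (number of genes in brackets); each point is a gene, black bars are list medians, and dotted lines mark 2-fold. The basal epithelial and EGF family genes all lie right of 0, the G2/M genes lie close to 0, and the mesenchymal list has the points farthest left.

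The CDH3-high cells also differed among themselves. They were split at their median KRT14 level (4032 CPM) into 164 KRT14-rich cells, with a median of 4446 UMIs, and 164 KRT14-poor cells, with 4581. With KRT14 and CDH3 left out, 184 genes were measured, of which 2 (1.09%) were higher in the KRT14-rich cells and 6 (3.26%) were lower. KRT17 was 2.26-fold higher (2.21 to 2.31) in the KRT14-rich cells. COL3A1 was also called higher, at 2.87-fold, but 78.3% of its UMIs there came from 1 cell, and without the top cell of each group 45 UMIs faced 68.

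Of the 6 genes lower in the KRT14-rich cells, 3 act in the cell cycle (NDC80, CENPA and DTL), and 3 with larger folds (CCL3, IGFBP3 and WISP1) do not. All 17 G2/M genes were below 1, as were 102 of all 184 genes. The median log2 fold was -0.88 for the G2/M genes and -0.04 over all 184. The kinetochore component NDC80 was 2.23-fold lower (1.88 to 2.65) and the centromeric histone CENPA 2.18-fold lower (1.95 to 2.45), and those were the only 2 of the list past 2-fold. CDC20 was at 4116 CPM in KRT14-rich and 7532 CPM in KRT14-poor cells, which is 1.83-fold lower (1.75 to 1.91). The replication factor DTL was 2.02-fold lower (1.39 to 2.99), and 11 of 15 measured G1/S genes were below 1. The chemokine CCL3 was 17.1-fold lower (10.2 to 30.9) on 15 against 280 UMIs, and 49.3% of the latter came from 1 cell. IGFBP3 was 2.59-fold lower (2.35 to 2.87) and WISP1, a matricellular protein, 2.31-fold lower (1.54 to 3.55).

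In the same split among the other cells, 2488 against 2489 cells, all 17 G2/M genes were again below 1, against 111 of 236 measured genes. The G2/M median log2 fold was -0.26. The larger value in CDH3-high cells was not tested against it. These genes were named after their values were seen.

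The same threshold was applied to the other populations. Cells with 3 or more CDH3 UMIs were 286 of 4362 naïve spheroid cells (6.56%), 88 of 7032 doxorubicin-resistant attached cells (1.25%) and 3 of 5896 paclitaxel-resistant attached cells (0.0509%). The resistant spheroids had 2 and 19 such cells. CDH3 stood at 129.9 CPM in naïve attached, 10.8 in paclitaxel-resistant and 31.3 CPM in doxorubicin-resistant attached cells, at median depths of 3710, 3653 and 3814 UMIs. Naïve spheroid cells were shallower, at a median of 1538.5 UMIs, and had CDH3 at 233 CPM. The plain shares of naïve spheroid and naïve attached cells are therefore not at equal depth. Among cells thinned to 2000 UMIs they were 5.92% (4.91 to 7.06%) in spheroids and 2.92% (2.46 to 3.44%) in attached cells. Populations with fewer than 50 such cells were not compared further. In spheroids the chosen cells were far deeper than the rest, at a median of 5780 against 1273 UMIs, so folds weighted to the depth of the chosen cells are given in brackets beside the plain ones.

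In naïve spheroids 12 of 228 measured genes (5.26%) were higher and 17 (7.46%) lower in these cells, and in doxorubicin-resistant attached cells 20 of 218 (9.17%) and 22 (10.1%). Of the 9 genes higher in naïve attached cells, all 9 were measured in spheroids, where 3 were called higher and 6 were above 1, and 6 were measured in doxorubicin-resistant cells, where 4 were called higher. Of the 17 lower genes, 15 were measured in spheroids, where 4 were called lower, and 13 in doxorubicin-resistant cells, where 7 were called lower.

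KRT14 had the higher level in CDH3-expressing cells of all 3 populations: 5.22-fold in spheroids (5.46 at matched depth) and 9.39-fold in doxorubicin-resistant cells (6.17 at matched depth), against 2.65-fold in naïve attached cells. SFN was at 2.73-fold in spheroids (2.38 at matched depth) and 2.53-fold in doxorubicin-resistant cells (2.09). AREG was at 1.99-fold in spheroids, where it passed 2-fold at matched depth (2.37), and at 5.67-fold in doxorubicin-resistant cells (4.78). All of these were above 1 in both populations. KRT17 was at 2.85-fold in spheroids (3.10) and 1.38-fold in doxorubicin-resistant cells (1.42). TP73, under 2-fold in naïve attached cells, was at 2.59-fold in spheroids (2.42) and 2.77-fold in doxorubicin-resistant cells (2.77). CD74 was at 3.41-fold in spheroids (3.47) and 12.6-fold in doxorubicin-resistant cells (14.6). The keratin and SFN values thus lay on the same side in each population, with sizes that differed.

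The matrix genes did not all do so. PDGFRB was 3.38-fold lower in doxorubicin-resistant cells with 3 or more CDH3 UMIs (2.70 at matched depth) and 1.47-fold lower in those of spheroids, where matched depth left 1.12-fold. COL3A1 was 3.98-fold lower (2.60 to 6.43) in doxorubicin-resistant cells (3.76 at matched depth). In spheroids COL3A1 stood at 17887 against 17093 CPM, a fold of 1.05 (1.20 at matched depth). The collagen difference of the attached cells was thus not seen in the spheroid library. DCN was 2.93-fold lower in doxorubicin-resistant cells (2.44) and 1.68-fold lower in spheroids (1.36).

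ABCG2 and ABCB1 encode efflux transporters. ABCG2, higher in CDH3-high naïve attached cells, was 1.48-fold lower in spheroids (1.63 at matched depth) and 1.70-fold lower in doxorubicin-resistant cells (1.75). ABCB1 was below 1 in all 3 populations, but in naïve attached cells only 1.24-fold lower (1.12 at matched depth) and not called. In spheroids ABCB1 was 3.43-fold lower, which matched depth reduced to 2.27-fold. In doxorubicin-resistant cells it was 2.38-fold lower (2.41), at 3268 against 7777 CPM. FCRLA, a B cell gene, was 1.38-fold lower in naïve attached cells. It was 2.16-fold higher in spheroids, where matched depth left 1.72-fold and so no call, and 2.81-fold higher in doxorubicin-resistant cells (2.60). Whether these folds differ between populations could not be tested, since each population was present once, and the spheroids were on a separate cartridge.

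**Figure D5:**
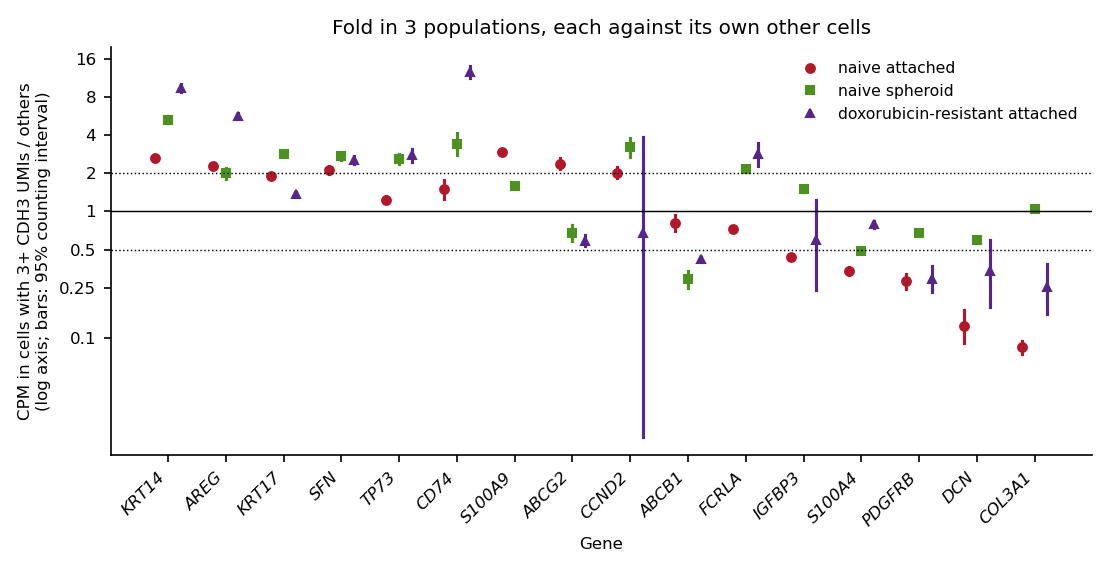
Fold of CPM between cells with 3 or more CDH3 UMIs and the other cells of the same population (log axis) for 16 genes in naïve attached, naïve spheroid and doxorubicin-resistant attached cells, with 95% counting intervals as bars and dotted lines at 2-fold; genes with fewer than 50 UMIs in the higher group of a population are left out of it. KRT14 and SFN lie above 2-fold in all 3, and ABCG2 is above 1 only in naïve attached cells among these 3.

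No cell label of the naïve attached population recurred in the other attached populations, and 71 recurred in the spheroid populations, which came from another cartridge. Of these, 2 belonged to CDH3-high cells.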

How the data were processed

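The authors deposited, per population, a matrix of counts, which are UMIs per gene and cell, from the BD Rhapsody targeted breast cancer panel. Per the paper's methods, RSEC-adjusted molecule counts were assigned to putative cells. The submitters' processing notes name hg38. No aligner is named in the sources used here. All 5305 deposited naïve attached barcodes were used, with 334 genes, and no doublet caller was run. In an alternative the 5% of cells with the most UMIs were left out.

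UMIs were summed per gene over CDH3-high and other cells and scaled to CPM without CDH3. Ratios carry exact conditional binomial 95% intervals, shares exact Clopper-Pearson intervals and levels Poisson intervals (Python 3.11.15, numpy 2.4.6, scipy 1.17.1, pandas 2.3.3). The contrast was checked on simulated data in which cells of a group differed by counting error only. That check therefore does not show how the intervals behave with spread between cells. Named genes were the 12 measured genes with the largest fold each way, the markers, the study's epithelial and mesenchymal genes, ABCB1, ABCG2, and the highest and lowest measured member of each of 17 gene lists. The members, markers and lists were chosen with earlier results of these data known. Ratios against a group at 0 used a floor of 3 counts. RefSeq gave the positions and the 250-base windows (GRCh38.p14), and 363 of the 373 symbols listed in the files of the series matched it. Alternatives changed the CDH3 threshold, the choice by share, depth (weighting by 10 depth strata, or thinning to 2000 UMIs), scaling, the filter on low counts and the size of fold.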

Additional observations from a re-analysis of the deposited data

Results flagged for a closer look

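Genes called in CDH3-high naïve attached cells whose interval lay on the other side of 1 in another population were looked at again. The differences between populations were not tested, since each population was present once with no replicate. ABCG2, at 2.38-fold higher in naïve attached cells, had a fold of 0.676 (0.587 to 0.775) in naïve spheroids and 0.589 (0.535 to 0.647) in doxorubicin-resistant attached cells, or 0.612 and 0.571 at matched depth. IGFBP3, 2.28-fold lower in naïve attached cells, had a fold of 1.49 (1.42 to 1.56) in naïve spheroids. COL3A1, 11.7-fold lower in naïve attached cells, had a fold of 1.05 (1.03 to 1.06) in naïve spheroids and 1.20 at matched depth. CD14, a myeloid co-receptor for lipopolysaccharide named here for this pattern, was 2.09-fold lower in naïve attached cells and had a fold of 1.29 (1.03 to 1.59) in doxorubicin-resistant attached cells on 88 UMIs.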

How the results depend on the processing

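The 22 named genes past 2-fold gave 241 values under 11 alternatives, and none changed direction. These alternatives rescored largely the same cells of 1 library, so a shared direction is weak support. The depth quartiles were not among them, and there ESM1 was not above 1 in every quartile. Several scarce lower genes had quartiles with 0 UMIs in CDH3-high cells. Those values came from the floor and show no reversed direction. The share of CDH3-high cells was 2.92% after thinning, 9.76% at 2 or more CDH3 UMIs and 3.11% at 5 or more. The 17 lower genes became 10 at 2 or more CDH3 UMIs, 27 at 5 or more, 11 without scaling and 34 at 1.5-fold, while the count of higher genes stayed within 6 to 13. The median log2 fold of the basal list (0.38) was 0.43 at 2 or more UMIs, 0.45 at 5 or more, 0.49 by CDH3 share, 0.42 depth-weighted, 0.31 without the 5 most abundant genes in the totals, 0.66 without scaling and 0.29 without collagen-rich cells, an alternative chosen after seeing the data. The mesenchymal median (-0.26) was -0.40 at 5 or more UMIs, -0.21 by share, -0.18 depth-weighted, -0.32 without the top 5 genes and 0.022 without scaling. The G2/M median (0.02) was -0.15 by share, -0.094 depth-weighted, -0.063 thinned, 0.30 without scaling and -0.19 without the 5% deepest cells. The G1/S median (0.02) was -0.15 at 5 or more UMIs, -0.14 by share and 0.31 without scaling, and the inflammatory median (-0.42) was -0.13 without scaling. The cause of these moves was not tested; the median over all measured genes was itself 0.24 without scaling. No replicate could be left out and no paired analysis was possible because each population was present once. ALDH1A1, CCND2 and ESM1 each lost their call under several alternatives, SFN without collagen-rich cells, and 9 of the 17 lower genes at 2 or more CDH3 UMIs.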
